A study of Mus musculus with 12 samples.

Results

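Chemokines are small secreted proteins that direct white blood cells along concentration gradients, and they act through G protein-coupled receptors on the cells that move. They are grouped by the spacing of their first cysteines (CC, CXC, XC and CX3C), and 4 atypical receptors bind them without the usual signal and take them up. Some of them are made in healthy tissue and place resident leukocytes, lymphocytes and dendritic cells, while others are induced by injury or infection and bring in neutrophils and monocytes. In the lung, the epithelium and the alveolar macrophages make several of them at rest.

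The genes described here were chosen by name, as every row of the gene table whose symbol begins with Ccl, Cxcl, Xcl, Cx3cl, Ccr, Cxcr, Xcr, Cx3cr or Ackr followed by a number and at most 1 letter, together with Pf4 and Ppbp, which are CXC chemokines of platelets. The rule used no measured value and found 62 of 55679 genes, made up of 40 ligands, 18 signalling receptors and 4 atypical receptors. The study asked what the loss of Adam19, a membrane-bound metalloprotease gene linked to human lung function, does in mice. RNA was taken from whole lung and whole heart of 6 male mice of the 129S6/SvEvTac strain aged 9–13 weeks, 3 wildtype (WT) and 3 knockout (KO), so that there were 12 libraries in 4 groups of 3. In the KO mice both copies of Adam19 carried a tdTomato construct in place of exons 6 and 7, a design that leaves the exons before the construct in place. The labels name no treatment. Each mouse gave a lung and a heart library that carry the same replicate number, and the identifiers of WT and KO mice share no prefix, so that a difference between prefixes and a difference between genotypes cannot be told apart.

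All gene values are on a log2 scale, where a step of 1 is a factor of 2, and 0 means that no read was assigned. The libraries held between 17674788 and 35862932 estimated counts. The share of the single gene Rn7s1 in the summed gene values, taken off the log scale, differed widely between lungs. It was 33.97, 29.85 and 2.10% in WT lungs, 10.46, 3.22 and 20.30% in KO lungs and 2.70 to 11.76% in the hearts. What this share did to the values of other genes was not tested. Adam19 itself was at 9.12 to 9.41 in WT lungs and 3.21 to 4.44 in KO lungs, and at 9.17 to 10.27 in WT hearts and 6.01 to 6.67 in KO hearts. The markers of alveolar type 2 and airway cells summed to 18.90 to 19.25 in the lungs, and those of heart muscle to 20.78 to 21.06 in the hearts, as the tissue labels say. Lung WT replicate 3 stood apart, with Rag1, a gene of developing lymphocytes, at 5.69 where the other 5 lungs were listed at 0, and Dntt at 5.09 where they were at 2.77 to 3.72. Results that rest on this library are given with and without it.

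The cysteines that name the classes can be read in the coding sequences of the ligands that the results below turn on. The windows of 30 bases are from GENCODE vM39 on GRCm39, run 5′ to 3′ on the coding strand, and have the first cysteine codons of the mature protein in capitals. Cxcl12 lies at chr6:117148460-117148489 (plus strand), Cxcl15 at chr5:90943078-90943107 (plus strand), Ccl6 at chr11:83480200-83480229 (minus strand) and Cx3cl1 at chr8:95504673-95504702 (plus strand), each within 1 coding exon. Cxcl12 and Cxcl15 have 1 codon between the cysteines, Ccl6 has 0 and Cx3cl1 has 3. In Cxcl15 the codons just before them are those of the ELR motif that marks neutrophil-attracting CXC ligands, and in Cxcl12 they are not.
Cxcl12: agctaccgaTGCcccTGCcggttcttcgag
Cxcl15: gagctacgaTGTctgTGTattcaggaacac
Ccl6: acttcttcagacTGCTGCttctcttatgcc
Cx3cl1: acgaaaTGCgaaatcatgTGCgacaagatg

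The map of all values shows how unevenly these genes were expressed. In the lung 27 of the 62 had a mean value of at least 6, and in the heart 17 did. Values were above 0 in all 6 lung libraries for 55 of the genes and in all 6 heart libraries for 32. Ccl26 was listed at 0 in every library, and Ccr4, Ccr8, Cxcr1, Ccl1 and Ccl21d were at 0 in every heart library as well.

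**Figure D1:**
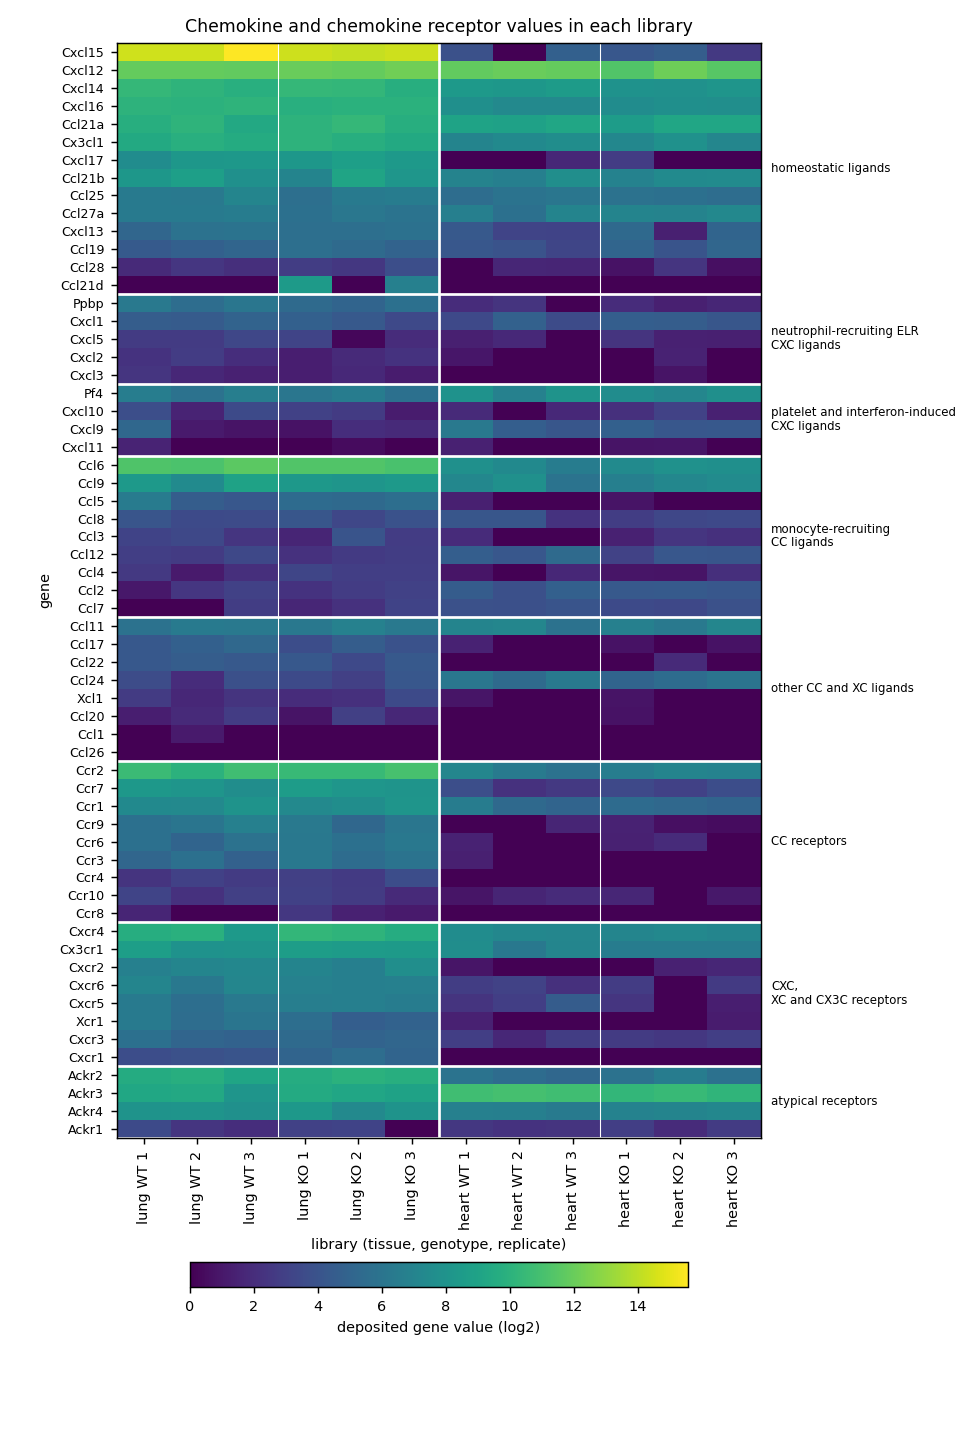
Deposited gene values (colour, log2) of 61 of the 62 chemokine and chemokine receptor genes (rows, grouped by role) in the 12 libraries (columns). Cxcl15 is the brightest row in the lung and is near the bottom of the scale in the heart, while Cxcl12 is about as bright in both.

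Levels of different genes were compared per length, as estimated counts per kilobase of transcript, adjusted between libraries as the gene values are, and the order given is that of the mean share of all transcripts. Cxcl15, also called lungkine, a CXC ligand of lung epithelium, led in the lung with a median of 10500.3 per kilobase over 6 libraries (8877 to 23331). Ccl6, a CC ligand of macrophages, came next with a median of 2082 (1810 to 2616), and these ranges do not overlap. Ccl21a, Cxcl12, Cxcr4, Cxcl14, Cxcl16 and Ccr2 followed, with medians between 419 and 1105 and with overlapping ranges between neighbours.

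In the heart Cxcl12, the ligand of Cxcr4 that retains stem cells and lymphocytes in tissue, had the highest level, with a median of 750.0 per kilobase (522 to 880). Ccl21a, a CC ligand of lymphatic endothelium that guides cells with Ccr7, had a median of 625 (444 to 685), and Ackr3, the atypical receptor that removes Cxcl12, had a median of 532 (380 to 663). These 3 ranges overlapped. Ccl27a, Ccl21b, Cxcl14, Ccl6 and Pf4 were next, with medians between 145 and 215.

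The tissues were compared first, over all 12 libraries with limma, and a gene was called at a Benjamini-Hochberg adjusted p under 0.05, a fold of at least 1.5 and a group mean of at least 6. Of the 62 genes, 45 reached a value of 3.46 in at least 3 libraries and were tested. Of these, 23 were called higher in the lung, where 30.1% of all 17666 tested genes were, and 3 were called lower, where 21.2% were. Of the 45, 16 reached the filter in the lung only and so entered the test through their lung values, which favours a higher lung mean. Another 4 (Ccl2, Ccl7, Ccl12 and Cxcl9) reached it in the heart only. The remaining 25 reached it in each tissue. Of these 25, 16 were called higher in the lung, against 32.7% of the 14330 genes that reached the filter in each tissue, and 3 were called lower, against 24.6%. Their median log2 difference was 1.21, beside 0.20 for those 14330 genes. In whole tissue, fewer cells of a type and less RNA per cell cannot be told apart.

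**Figure D2:**
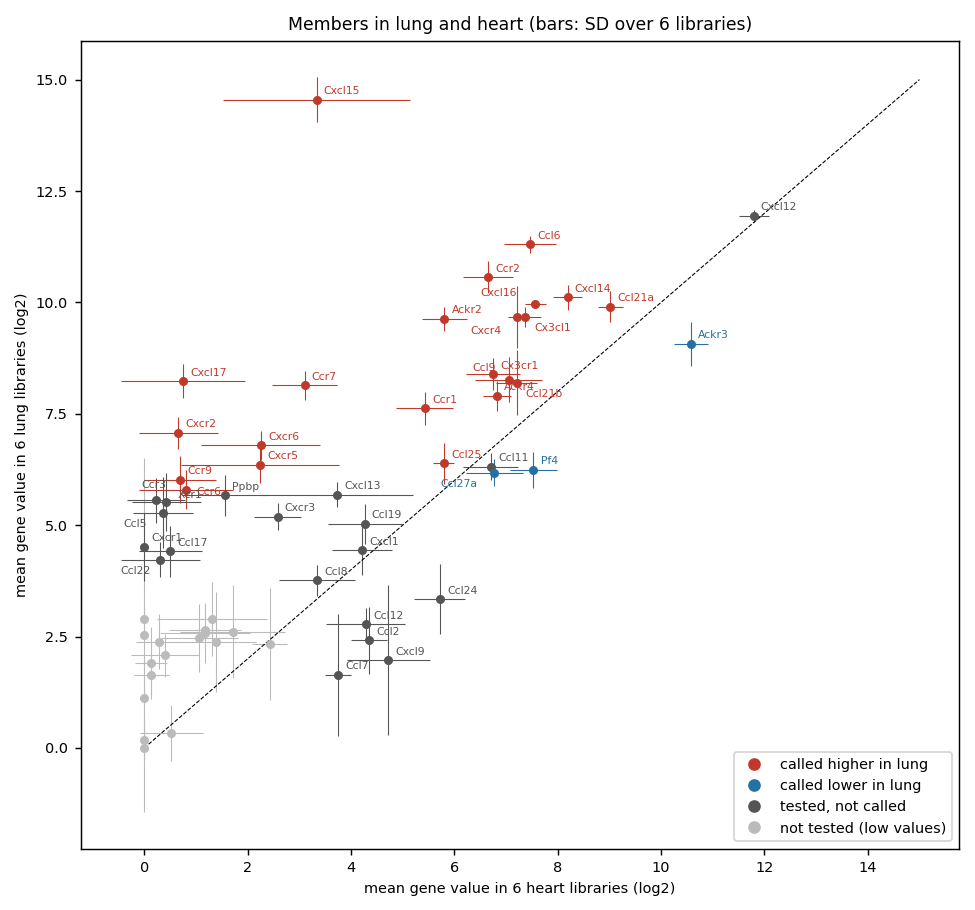
Mean gene value (log2) in 6 lung libraries against that in 6 heart libraries for 61 of the 62 genes, with bars for the SD and a dashed line of equal values. Of the genes called higher in the lung Cxcl15 lies farthest above the line, Cxcl12 lies on it, and Ackr3, Pf4 and Ccl27a, called lower in the lung, lie below it.

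The calls are given by role as counts, to be read beside the 30.1% of all tested genes called higher in the lung and the 21.2% called lower. No difference between roles was tested. Of 14 ligands made at rest, 12 were tested, 8 were called higher in the lung and 1 lower. Of 10 CC receptors 7 were tested and 6 called higher, and of 8 CXC, XC and CX3C receptors 8 were tested and 5 called higher. These counts hold Cxcl17, Ccr6, Ccr7, Ccr9, Cxcr2, Cxcr5 and Cxcr6, which reached the filter in the lung only and could be called in 1 direction only. Of 4 atypical receptors 3 were tested, 2 called higher and 1 lower. Of 9 CC ligands that recruit monocytes 7 were tested and 2 (Ccl6 and Ccl9) called higher, of 4 platelet and interferon-induced CXC ligands 2 were tested and 1 (Pf4) called lower, and none was called among 5 ELR CXC ligands other than Cxcl15 (2 tested) and 8 other CC and XC ligands (4 tested). Cxcl15, which also has the ELR motif, is counted with the ligands made at rest. The low counts among induced ligands rest on the group mean of 6, since with the adjusted p alone Ccl5, Ccl17, Ccl22 and Ppbp were also called higher in the lung and Ccl2, Ccl7, Ccl12, Ccl24 and Cxcl9 lower. Of these only Ccl24 reached the filter in each tissue.

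Cxcl15 had the largest difference of the tested members. It was at 14.41, 14.42 and 15.55 in WT lungs and 14.39, 14.16 and 14.35 in KO lungs. In the hearts it was at 3.89, 0 and 4.77 in WT and 4.20, 4.57 and 2.58 in KO. The tissues did not overlap, the difference was 11.21 ± 0.66 (limma standard error, 12 libraries; adjusted p = 6.04e-09), and without lung WT replicate 3, the highest lung, it was 11.02. Cxcl15 was also the member with the largest spread between heart libraries of a group (pooled SD 1.94, where the median of 29 tested members was 0.48). The summed markers of alveolar type 2 and airway cells moved over the hearts as well, at 7.59, 6.53 and 9.91 in WT and 11.29, 9.58 and 6.53 in KO, with Sftpc, the surfactant protein C gene, at 4.78 to 7.71. Heart WT replicate 2, where Cxcl15 was listed at 0, shared the lowest sum with heart KO replicate 3. Whether lung material reached the heart samples was not tested.

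Cxcl17, a mucosal ligand of airway cells, was at 7.57, 8.23 and 8.26 in WT lungs and 8.22, 8.75 and 8.37 in KO lungs. It was listed at 0 in 4 hearts, with 1.75 in WT replicate 3 and 2.75 in KO replicate 1, the hearts with the highest sums of alveolar and airway markers. It reached the filter in the lung only, so its difference is a description. That difference was 7.48 ± 0.49 on the log2 scale (limma standard error), a value that depends on how the zeros are treated and moved between 5.98 and 8.63 over the alternatives.

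Ccl6 was at 11.29, 11.14 and 11.64 in WT lungs and 11.33, 11.33 and 11.09 in KO lungs. Hearts were at 7.79, 7.37 and 6.52 in WT and 7.47, 7.86 and 7.75 in KO, all below the lungs. The difference was 3.85 ± 0.19 (limma, adjusted p = 9.32e-10). The markers of alveolar macrophages summed to 14.19 to 14.95 in the lung and 7.75 to 10.13 in the heart, and those of resident and monocyte-derived macrophages to 13.26 to 13.58 and 12.55 to 12.95. The latter list was split, with 6 of 10 called higher in the lung and 4 lower, beside 30.1% and 21.2% of all genes. Those called lower were C1qa, C1qb, C1qc and Cd163, with C1qa at 7.91 to 8.79 in the lungs and 9.24 to 10.21 in the hearts. The alveolar macrophage sum in the heart was carried by Cidec, also a marker of fat cells, at 5.96 to 9.97, and Car4, at 6.22 to 7.22. Marco, Chil3, Ear2, Fabp1 and Krt79 were at 7.10 to 14.71 in the lungs and 0 to 5.18 in the hearts.

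Cx3cl1, or fractalkine, is held on the membrane of endothelium and epithelium and binds Cx3cr1 on monocytes and macrophages. It was at 9.47, 9.79 and 9.55 in WT lungs, 10.02, 9.76 and 9.44 in KO lungs, 7.0, 7.38 and 7.60 in WT hearts and 7.23, 7.85 and 7.15 in KO hearts. All lungs lay above all hearts, with a difference of 2.31 ± 0.16 (limma, adjusted p = 2.96e-08). Its receptor Cx3cr1 differed in the same direction by 1.64 ± 0.22 (adjusted p = 1.87e-05), from 7.90 to 8.74 in the lungs and 6.20 to 7.63 in the hearts.

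Of the 8 members with the highest levels in the lung, Cxcl12 alone was not called higher there. It was at 11.90, 11.85 and 11.83 in WT lungs, 11.99, 11.90 and 12.18 in KO lungs, 11.84, 11.99 and 11.89 in WT hearts and 11.36, 12.13 and 11.53 in KO hearts. The tissues overlapped and the difference of 0.15 ± 0.12 did not pass the limma test (adjusted p = 0.270), with a median of 0.31 over all tested genes. With limma-voom, where that median was 0.86, Cxcl12 was called higher in the lung by 0.70, and in WT mice alone its difference was −0.050. Its 2 receptors differed in opposite directions. Cxcr4, which signals, was at 8.34 to 10.29 in the lungs and 7.10 to 7.58 in the hearts, higher in the lung by 2.44 ± 0.23 (adjusted p = 6.73e-07). Lung WT replicate 3 was the lowest lung, and without it the difference was 2.69.

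Ackr3, which takes up Cxcl12, was the member called with the largest difference toward the heart. It was at 9.25, 9.39 and 8.12 in WT lungs and 9.50, 9.18 and 8.98 in KO lungs. Hearts were at 10.81, 10.97 and 10.78 in WT and 10.27, 10.49 and 10.16 in KO, all above the lungs. The lung lay lower by 1.51 ± 0.19 on the log2 scale (limma, adjusted p = 1.0e-05), and by 1.31 without lung WT replicate 3, the lowest value. The other atypical receptors differed the other way. Ackr2, which degrades inflammatory CC ligands, was higher in the lung by 3.83 ± 0.18 (adjusted p = 5.67e-10), and Ackr4, which removes Ccl19, Ccl21 and Ccl25, by 1.08 ± 0.17 (adjusted p = 8.37e-05). Ackr1, the receptor on venules and red cells, stayed between 0 and 3.48 and was not tested.

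Pf4, platelet factor 4, was lower in the lung by 1.29 ± 0.25 (limma, adjusted p = 3.57e-04), with 5.72 to 6.65 in the lungs and 6.84 to 7.97 in the hearts and no overlap. Ppbp, the other platelet chemokine, was at 5.03 to 6.26 in the lungs and 0 to 2.31 in the hearts, so it lay on the other side, and its lung means were under 6. The summed markers of platelets and megakaryocytes were at 8.98 to 9.60 in the lungs and 6.81 to 7.73 in the hearts. Itgb3, at 8.70 to 9.16 in the lungs and 6.64 to 7.31 in the hearts, was the largest term in every library. Gp9 was at 2.83 to 4.08 in the lungs and 0 to 1.78 in the hearts. Pf4 is also expressed by resident macrophages, whose listed markers differed between tissues in both directions. The part of platelets or of macrophages in the Pf4 value was not tested. Ccl27a, an epithelial ligand of Ccr10, was called lower in the lung by 0.60 ± 0.21 (adjusted p = 0.0216) but overlapped between tissues. Over the alternatives its difference lay between −1.25 and −0.04, it was −0.07 in WT mice alone, the call was lost without any 1 of lung WT replicates 1 and 2, lung KO replicate 1, heart WT replicates 1 and 3 and heart KO replicate 3, and summed over 5 near-identical genes on chromosome 4 it was −0.31 and not called (adjusted p = 0.163).

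Cxcr2, Ccr7, Cxcr6, Cxcr5, Ccr6 and Ccr9, receptors of lymphocytes, dendritic cells and neutrophils, reached the filter in the lung only. They were tested only because they were high there, so their differences between tissues are descriptions with limma standard errors. Cxcr2, which neutrophils use to follow ELR ligands, was at 6.75, 7.08 and 7.21 in WT lungs and 7.01, 6.69 and 7.70 in KO lungs, and at 0 to 1.67 in the hearts, a difference of 6.42 ± 0.34. Markers of neutrophils summed to 10.17 to 11.32 in the lungs and 4.05 to 6.28 in the hearts, where the surface antigen gene Ly6g and the granule gene Ngp were at 0. Both were low in the lungs as well, Ly6g at 0 to 1.91 and Ngp at 1.74 to 3.65. S100a8 was at 0.83 to 2.77 in the hearts and S100a9 at 0 to 4.24. Ltf, at 5.98, was the largest term in heart KO replicate 1. Ccr7, which takes dendritic and T cells to lymph nodes, was at 7.62 to 8.62 in the lungs and 2.20 to 3.76 in the hearts, 5.03 ± 0.27 apart. Cxcr6, the receptor of Cxcl16 on T and natural killer cells, was at 6.21 to 7.15 and 0 to 3.09, 4.54 ± 0.44 apart.

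Cxcr5, the B cell receptor for Cxcl13, was at 5.59 to 6.73 in the lungs and 0 to 4.55 in the hearts, with 4.55 in heart WT replicate 3 alone, and the difference was 4.12 ± 0.44. Ccr6, which binds Ccl20, was at 5.03 to 6.24 and 0 to 1.94, 4.99 ± 0.40 apart. The call rested on a KO mean of 6.06 and was lost in 5 of 23 alternatives. Markers of B cells summed to 9.89 to 11.08 in the lungs and 5.63 to 6.97 in the hearts, and those of T cells to 9.64 to 10.10 and 5.23 to 5.78.

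Ccr9, a receptor of thymocytes and gut lymphocytes, was at 5.76, 6.03 and 6.78 in WT lungs, 6.29, 5.20 and 6.08 in KO lungs and 0 to 1.58 in the hearts, 5.33 ± 0.38 apart. Lung WT replicate 3 was the highest, and without it the difference was 5.18 and the call was lost because the highest group mean fell to 5.89. Its ligand Ccl25, made by thymic and gut epithelium, was at 7.09 in that same library and 5.67 to 6.52 in the other lungs. Ccl25 was called higher in the lung by 0.59 ± 0.21 (limma, adjusted p = 0.0205), and not called without it, at 0.47, nor without any 1 of lung KO replicates 2 and 3, heart WT replicate 1 and heart KO replicate 3. Of 9 thymus markers, Foxn1 was at 0 in all lungs, and Psmb11, Rag1 and Rag2 were above 0 in lung WT replicate 3 alone. The list summed to 8.84 there and 8.07 to 8.5 in the others. Cd1d1, at 7.29 to 7.72, and Themis, at 6.63 to 7.41, were the largest terms of the sum in every lung. Whether thymus tissue was in lung WT replicate 3 was not tested.

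**Figure D3:**
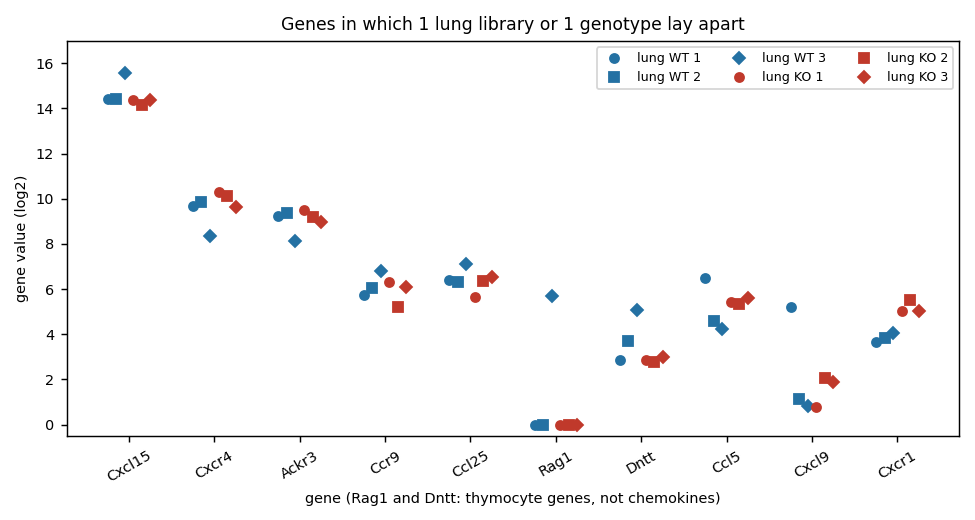
Gene values (log2) of 8 chemokine or receptor genes and of 2 thymocyte genes, Rag1 and Dntt, in the 6 lung libraries, with WT in blue and KO in red and a marker shape for each replicate. Lung WT replicate 3 (blue diamonds) is highest in Cxcl15, Ccr9, Ccl25, Rag1 and Dntt and lowest in Cxcr4 and Ackr3, lung WT replicate 1 (blue circles) is highest in Ccl5 and Cxcl9, and all 3 KO lungs lie above all 3 WT lungs in Cxcr1.

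The monocyte receptors were present in both tissues. Ccr2, the receptor that inflammatory monocytes use to leave the marrow, was at 9.99 to 11.04 in the lungs and 5.87 to 7.16 in the hearts, 3.92 ± 0.21 apart (limma, adjusted p = 3.03e-09). Several of its ligands lay the other way. Ccl2, Ccl7 and Ccl12 reached the filter in the heart only, with means of 4.34, 3.75 and 4.29 there and 2.42, 1.64 and 2.78 in the lung, and none had a group mean of 6. Ccl24, an eosinophil ligand of Ccr3, also had higher values in the heart (5.02 to 6.30) than in the lung (1.95 to 4.19), while Ccr3 was at 4.84 to 6.20 in the lungs and above 0 in heart WT replicate 1 alone. Cxcl9, an interferon-induced ligand of Cxcr3, was at 4.14 to 6.26 in the hearts and 0.77 to 5.22 in the lungs.

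Other ligands made at rest were higher in the lung as well. Cxcl16, a membrane-bound ligand and scavenger receptor, was higher in the lung by 2.41 ± 0.10 (limma, adjusted p = 2.33e-10). Cxcl14, an epithelial and stromal ligand, was higher by 1.93 ± 0.14 (adjusted p = 3.42e-08). Ccl21a was higher by 0.88 ± 0.16 (adjusted p = 2.50e-04). The receptors Cxcr6 (of Cxcl16) and Ccr7 (of Ccl21a) reached the filter in the lung only, so their differences are descriptions. Ccl11 (eotaxin), Cxcl1 and Ccl8 overlapped between tissues and did not pass the adjusted threshold.

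The 17 members that were not tested were Ackr1, Ccl1, Ccl3, Ccl4, Ccl20, Ccl21d, Ccl26, Ccl28, Ccr4, Ccr8, Ccr10, Cxcl2, Cxcl3, Cxcl5, Cxcl10, Cxcl11 and Xcl1. Apart from Ccl21d none of them went above 4.03, the value of Ccl3 in lung KO replicate 2.

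The Ccl21 genes need a caution of their own, because mouse chromosome 4 holds several copies. Ccl21a lies at chr4:42772859-42773995, Ccl21b at chr4:42255693-42256825 and Ccl21d at chr4:41903610-41904743 (GRCm39). Transcripts of Ccl21b and Ccl21d were identical over 869 bases, and those of Ccl21a and Ccl21b were 97.5% identical over 886. Over 399 coding bases Ccl21a differs from Ccl21b at 2, T84A and C194T (the base in Ccl21a, its position from the first coding base, the base in Ccl21b), and Ccl21b and Ccl21d differ at 0. The windows below hold coding bases 179 to 208 across an exon junction, with the differing base in capitals.
Ccl21a: cggcaatcctgttctCaccccggaagcact
Ccl21b: cggcaatcctgttctTaccccggaagcact
Ccl21d: cggcaatcctgttctTaccccggaagcact

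Ccl21d was listed at 0 in 10 libraries, at 8.47 in lung KO replicate 1 and at 6.78 in lung KO replicate 3. In those libraries Ccl21b was at 7.02 and 8.19, and in the other 4 lungs at 7.83 to 9.07. Summed over Ccl21b and its identical copies, these 2 lungs were at 8.92 and 8.65, inside the range of 7.83 to 9.07 of the others. Reads that fit both genes equally can be assigned to either, so values of Ccl21b and Ccl21d taken singly are uncertain. Ccl21d was not tested in the main fit. When 1 library was left out within a tissue, the filter asked for 2 libraries in place of 3. Without lung KO replicate 2, Ccl21d reached it through the 2 KO lungs where it was listed above 0, and became the 1 member called between genotypes. It was tested only because it was high in those lungs, so this call is a description. Summed over all 4 Ccl21 genes in the table, KO and WT lungs differed by 0.37 ± 0.23 (adjusted p = 0.841), and the lung was higher than the heart by 1.01 ± 0.17 (adjusted p = 1.0e-04). Ccl19, the other ligand of Ccr7, has 9 near-identical genes in the table, and the sum over all 10 was higher in the lung by 1.52 ± 0.24 (adjusted p = 6.68e-05), where Ccl19 alone differed by 0.77 and had no group mean of 6.

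**Figure D4:**
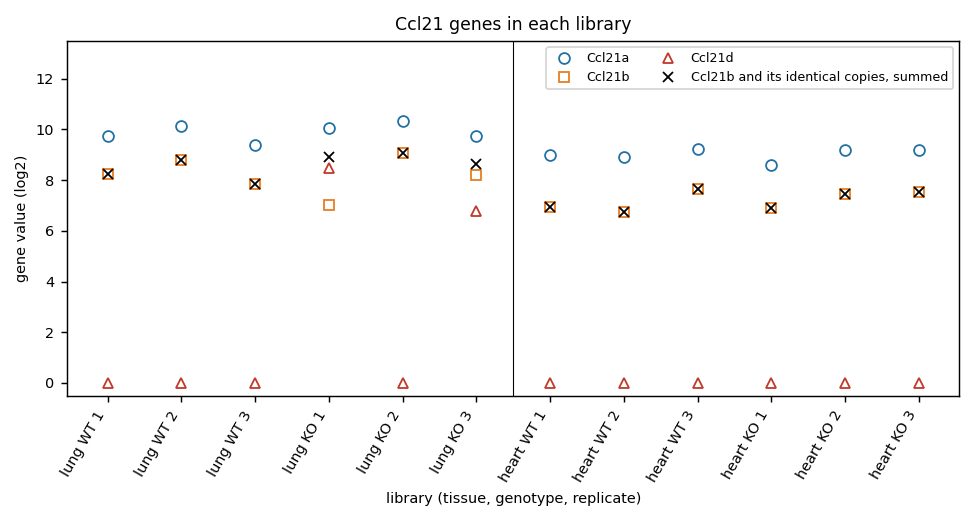
Gene values (log2) of Ccl21a, Ccl21b and Ccl21d in the 12 libraries, with a cross for the sum of Ccl21b and its identical copies. Ccl21d is at 0 except in lung KO replicates 1 and 3, where Ccl21b lies below the cross.

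The genotypes were then compared within each tissue, the contrast the study was made for. In the lung 41 of the 62 genes were tested and 0 passed all thresholds in limma, as did 0.0665% of 16551 genes. At an unadjusted p under 0.05 there were 2 of 41, beside 5.93% of all genes. The 3 KO and 3 WT values did not overlap for 6 of 41 members, beside 12.8% of all genes, with Cxcr1, Cxcr5 and Cxcl12 higher in KO and Ccl27a, Cxcl15 and Cxcl16 lower. The differences lay between −0.93 and 1.34 with a median of 0.12 (0.010 over all genes), and their standard errors between 0.14 and 0.63. With 3 mice a group small changes of single genes were not detectable, and even the largest, 1.34, had an adjusted p of 0.783 in limma. Members without a group mean of 6 could not be called at any size of difference.

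In the heart 29 were tested and 0 passed, as did 0.0850% of 15303 genes. At an unadjusted p under 0.05 there were 3 of 29, beside 7.46% of all genes, and 3 did not overlap, beside 13.0%. The median difference was 0.07, beside 0.03 for all genes. An exact two-sided permutation test of 3 against 3 cannot go below p = 0.10, and the members without overlap reached that value.

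Cxcr1, the second neutrophil receptor for ELR ligands, had the smallest p in the lung. It was at 3.65, 3.85 and 4.04 in WT lungs and 5.01, 5.53 and 5.01 in KO lungs, with every KO value above every WT value. The difference was 1.34 ± 0.34 with an adjusted p of 0.783 in limma, and no group mean reached 6. Over 16 alternatives it lay between 1.16 and 1.67, and the adjusted p between 0.266 and 0.994. Cxcr2, its neighbour on chromosome 1, differed by 0.12 ± 0.29. The neutrophil markers summed to 10.48, 10.17 and 10.51 in WT and 10.24, 10.94 and 11.32 in KO lungs, which overlap, and their part in the Cxcr1 values was not tested. Ltf, at 9.77, was the largest term of the sum in lung KO replicate 2, and S100a9 was the largest in the other lungs.

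Xcr1, the Xcl1 receptor of cross-presenting dendritic cells, was at 6.36, 5.56 and 6.06 in WT lungs and 5.64, 4.67 and 4.88 in KO lungs. KO replicate 1 lay above WT replicate 2, so the groups overlapped, and the difference of −0.93 ± 0.35 had an adjusted p of 0.806. Clec9a, the marker of cross-presenting dendritic cells in the list, was at 5.95, 4.83 and 5.91 in WT lungs and 5.17, 4.61 and 4.85 in KO lungs, a difference of −0.69 ± 0.38 (adjusted p = 0.841) with overlap. All 5 dendritic cell markers summed to 9.64 to 9.70 in WT and 9.51 to 9.82 in KO lungs, a sum in which Zbtb46, at 8.73 to 9.25, was the largest term in every lung. Their part in the Xcr1 values was not tested.

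Cxcr5 was at 6.38, 5.59 and 6.29 in WT and 6.63, 6.73 and 6.56 in KO lungs, without overlap and 0.55 ± 0.27 apart (adjusted p = 0.836). The B cell markers summed to 11.08, 9.89 and 10.75 in WT lungs and to at least 10.61 in each KO lung, with WT replicate 2 lowest in both. Ccl27a was at 6.34, 6.32 and 6.56 in WT and 5.74, 6.19 and 5.91 in KO lungs, a difference of −0.46 ± 0.24 (adjusted p = 0.839).

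Cxcl15 was lower in every KO lung than in every WT lung, by 0.49 ± 0.30 in the limma fit (adjusted p = 0.841). Without lung WT replicate 3, at 15.55, the difference was −0.11. Of the alveolar type 2 genes in the list, Sftpc was also lower in every KO lung, by 0.67 ± 0.20 (adjusted p = 0.806). Sftpd was lower in every KO lung by 0.43 ± 0.16 (adjusted p = 0.806). The others overlapped between genotypes, Sftpa1 at −0.36 ± 0.23, Lamp3 at −0.20 ± 0.17 and Sftpb, with the opposite sign, at 0.29 ± 0.24. Scgb3a2, a secretoglobin of airway cells, was higher in every KO lung, by 0.87 ± 0.20 (adjusted p = 0.727), so the joint sum of alveolar and airway markers given above holds shifts of both signs. None of these marker genes passed in limma, and their part in the Cxcl15 values was not tested.

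Cxcr4 differed by 0.72 ± 0.38 and by 0.24 without that library, and Ackr3 by 0.30 ± 0.32 and by −0.10, so that the sizes, and for Ackr3 the direction, rested on 1 mouse. Ccl6, Cx3cl1 and Cxcl12 differed by −0.11 ± 0.17, 0.14 ± 0.19 and 0.17 ± 0.14.

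Ackr3 had the smallest p in the heart. It was at 10.81, 10.97 and 10.78 in WT hearts and 10.27, 10.49 and 10.16 in KO hearts, so that the groups did not overlap. The difference was −0.55 ± 0.13 (limma, adjusted p = 0.397), between −0.64 and −0.48 over 16 alternatives. Cxcl14 was at 8.44, 8.24 and 8.56 in WT and 7.94, 7.86 and 8.12 in KO hearts, also without overlap, and −0.44 ± 0.16 apart (adjusted p = 0.609). Ackr4 had the opposite sign, at 6.78, 6.71 and 6.38 in WT and 6.91, 7.01 and 7.19 in KO hearts, 0.41 ± 0.20 apart (adjusted p = 0.693).

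**Figure D5:**
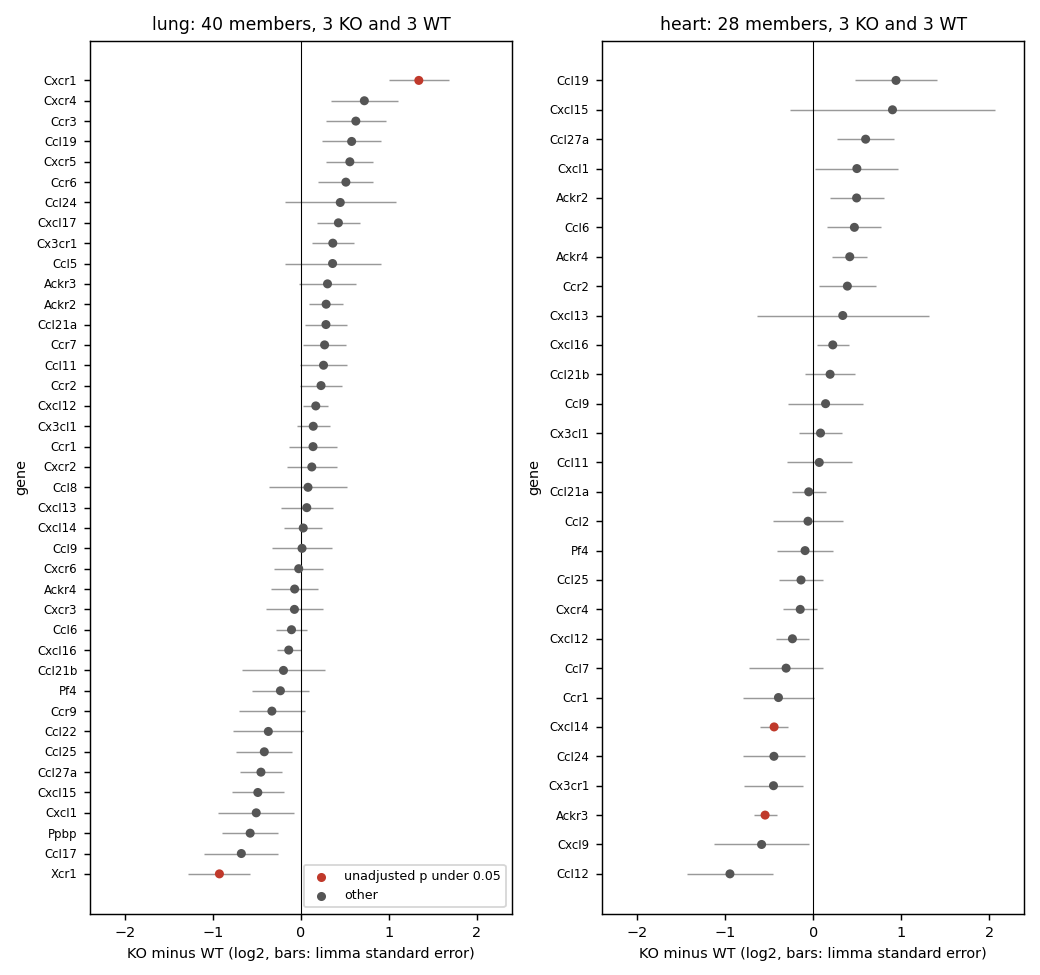
Difference between KO and WT (log2, with limma standard errors) for 40 of the 41 members tested in the lung and 28 of the 29 tested in the heart, sorted by size. Cxcr1 and Xcr1 in the lung and Ackr3 and Cxcl14 in the heart, in red, had an unadjusted p under 0.05, and no member passed the adjusted threshold in either tissue.

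Whether the genotype difference itself differed between tissues was tested in 1 model over 12 libraries. None of 45 members passed, as 0.00566% of 17666 genes did, and 4 of 45 (Cxcr5, Ccl27a, Cxcr1 and Ackr3) had an unadjusted p under 0.05, beside 7.88% of all genes. The smallest adjusted p in limma was 0.556, for Cxcr5 at 2.57 ± 0.89. Cxcr5 reached the filter in the lung only, where its difference was 0.55. The rest of its term came from heart means of 3.25 in WT and 1.24 in KO, both under the filter value of 3.46. Cxcr5 was not tested between genotypes within the heart, so its term is a description. Cxcr1 was listed at 0 in every heart, so its term repeats the lung difference.

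Spread between libraries of a group differed among the members and followed named libraries. In the lung the largest pooled SDs were those of Ccl5 (0.87), Ccl24 (0.84), Ccl21b (0.81) and Cxcr4 (0.64), beside a median of 0.38 over 41 members. Ccl5, a ligand made by T and natural killer cells, was at 6.49 in lung WT replicate 1 and 4.23 to 5.60 in the other lungs. Cxcl9 was at 5.22 in that library and 0.77 to 2.05 in the others. The natural killer markers summed to 9.90 there and 8.15 to 8.67 elsewhere, and their part was not tested.

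In the heart Cxcl13 (1.62) and Cxcl9 (0.81) were also among the 4 largest SDs. Cxcl13, the B cell attractant, was at 4.36, 3.20 and 3.13 in WT hearts and 5.31, 1.38 and 5.01 in KO hearts, where replicate 2 lay far below the other 2. Cxcl9 was at 6.26 in heart WT replicate 1 and 4.14 to 4.79 in the other hearts, so the mouse with the highest lung value also had the highest heart value. The steadiest abundant member in the lung was Cxcl16, at 9.83 to 10.09.

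By position, 14 members lie on chromosome 11 with Adam19, 13 on chromosome 5, 13 on chromosome 9 and 5 on chromosome 4. The CC ligands Ccl2, Ccl7, Ccl11, Ccl12 and Ccl8 begin 35.89 to 35.97 megabases beyond the end of Adam19, and Ccl5, Ccl9, Ccl6, Ccl3 and Ccl4 37.38 to 37.52 megabases beyond it. Those tested included none called between genotypes in either organ.

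The proteins around the receptors were read from a list of 35 genes for G proteins, arrestins, kinases, and the migration machinery. Between genotypes 0 of 35 tested in the lung and 0 of 34 in the heart were called. Between tissues 28 of 35 were called higher in the lung, beside 30.1% of all genes, and 1 lower, beside 21.2%, with a median of 1.80 beside 0.31 for all genes. Sdc1, a heparan sulfate carrier that binds chemokines, was higher by 4.18 ± 0.12 (limma), and Dpp4, the protease that trims several of them, by 3.78 ± 0.13. Mif, a cytokine that binds Cxcr2 and Cxcr4, was the gene called lower, by 1.86 ± 0.18. Of 23 genes of the NF-kB and TNF inputs that induce chemokines, 0 of 20 tested lung genes and 0 of 19 tested heart genes were called between genotypes. Between tissues 15 of 20 were called higher in the lung, beside 30.1% of all genes, and 0 lower, beside 21.2%, with a median of 1.15 beside 0.31.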

How the data were processed

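Strand-specific total RNA libraries were made from lung and heart of the same 6 mice. The authors quantified reads with Salmon against GENCODE vM33 transcripts of mm39 and deposited gene and transcript values on a log2 scale. The deposited transcript values are log2(1 + estimated count). The deposited gene values differ from them by a constant for each library (−0.63 to 0.80), whose method is not given in the sources used here. The submitters' processing notes list limma 3.42.2. The gene values were tested as deposited with limma 3.58.1 in R 4.3.3 (lmFit, eBayes with a variance trend), and each p was adjusted over all genes tested by Benjamini-Hochberg. Genes with at least 3.46, the log2 of 1 + 10, in 3 libraries were tested, 41 members in the lung, 29 in the heart and 45 over 12 libraries. Fits of the genotypes within 1 tissue that left out 1 library asked for 2 libraries. Tissue and interaction fits used 4 group means. Copies were found with BLAST 2.17.0 (at least 95% identity over 300 bases) in GENCODE vM39. All 62 members were matched by Ensembl identifier.

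The members and lists were chosen with earlier results of these data known, and the lists of markers and pathway genes support nothing by themselves. Genes were named by a fixed rule, as 4 markers, the smallest p and the largest SD of each tissue (4 each), the largest tissue differences and the highest levels (8 each), and others are named where a count or an axis needed them, after their values were seen. The genotype fits within the lung and within the heart were checked on simulated data, and the tissue and interaction fits were not. The labels tie lung and heart to a mouse. The correlation of a mouse's lung and heart deviations over 17666 genes lay between −0.07 and 0.14. Marker sums are log2 values of summed adjusted counts. Replicates are separate mice, and estimated counts carry counting error that no interval here covers. The values of 1 member, which is in the fits and the counts, are not reported here.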

Additional observations from a re-analysis of the deposited data

How the results depend on the processing

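Between genotypes the count of members called stayed at 0 in the lung, the heart and their difference under every alternative except 1, with a range of 0 to 1 in the lung when 1 library was left out (Ccl21d, without lung KO replicate 2) and 0 to 0 in the heart and the difference. Ccl21d was tested there only because the filter then asked for 2 libraries in place of 3. Between tissues, 23 members were called higher in the lung, and the count lay between 21 and 25 without 1 library. It was 15 with the filter asked of every library, because fewer genes were then tested, and 33 with the adjusted p alone. The count called lower, 3, was 5 after quantile normalization (Ccl11 and Ccl24 joined) and 8 with the adjusted p alone, and lay between 2 and 4 without 1 library. The share of all genes called under each of these settings was not set beside the counts. With the replicate block for the mouse the counts were 23 and 3, and the block changed no other call. limma-voom on back-transformed values moved the median tissue difference of all genes by 0.56 and that of the lung genotypes by 0.29, and quantile normalization moved the tissue median by −0.25. Under limma-voom Cxcl12 was called higher in the lung by 0.70, below that fit's median of 0.86, and in WT mice alone its difference was −0.050. Ccl27a lost its call in 9 of 25 alternatives, Ccr6 in 5 of 23 and Ccr9 in 3 of 24, and the other causes were not tested. Besides the fits without 1 library named above, Ccl25 lost its call under median scaling and quantile normalization and in each genotype alone. Ccl21b lost its call under quantile normalization and in KO mice alone, and Ccl9 in WT mice alone. With 3 mice a group, standard errors near 0.31 in the lung and 0.33 in the heart limit what could be called, most of all for genes near 0. Summed transcripts in place of the gene values gave 25 and 3. Over all genes, 11 were called between genotypes in the lung, 1 with the filter asked of every library and 6 with zeros treated as missing, and 13 were called in the heart, 7 with that filter and 21 both without heart KO replicate 2 and with all 12 libraries in the fit.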
